A study of Mus musculus with 9 samples.

Results

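The serine proteases, the lysosomal cathepsins and the genes that code for their inhibitors were followed in the uterine luminal epithelium of mice whose epithelium overexpresses progesterone receptor isoform A or B. The members were taken by symbol: serpins, Spink, Spint, cystatins whose symbol is Cst and a number, Wfdc and Slpi on the inhibitor side, and Prss, Klk, Tmprss, Htra, Plau, Plat and cathepsins (Cts and a letter) on the protease side, without Spink1 and Spint1. They were 103 of the 15158 gene symbols in the deposited table, of which 52 counted as inhibitors and 50 as proteases. The remaining symbol was Plaur, the cell surface receptor of the protease urokinase. The inhibitor class follows the symbols, so it also holds serpins known not to inhibit proteases, such as Serpinh1 and Serpinf1.

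There were 3 genotypes with 3 libraries each, all from females kept with littermates to 8 weeks of age, mated with stud males and dissected on pregnancy day 4. The ePRAoe mice (Wnt7acre/+PgrALsL/+) carry an isoform A allele, the ePRBoe mice (Wnt7acre/+PgrBLsL/+) an isoform B allele, and the controls carry Wnt7acre alone, so that the cre is shared by all 3 genotypes. Wnt7acre is known to act in the uterine epithelium, glands included, and LsL names an allele that is read once cre has removed its stop. Luminal epithelium was cut out by laser capture and its RNA sequenced. The labels call the libraries bioreplicates and name no animals, so the p-values below measure the spread between these libraries.

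Serine proteases cut proteins at the cell surface and in the space around cells, and they are held in check by serpins, which trap a protease by a change of shape, and by small inhibitors of the Kunitz (Spint), Kazal (Spink) and WAP (Wfdc, Slpi) types. Cathepsins are mostly cysteine proteases of the lysosome (cathepsin D is an aspartic protease), and cystatins such as Cst3 inhibit the cysteine ones. In the uterus these enzymes and inhibitors are known from uterine fluid, from the shedding and remodelling of tissue, and from the days around implantation, when the luminal epithelium meets the embryo.

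Values are listed as FPKM, a unit of fragments per kilobase of gene that by its name corrects for sequencing depth. They summed to between 272213 and 314010 per library, with 11074 to 12300 genes at 1 FPKM or more. Libraries of a genotype correlated at 0.949 to 0.981 across genes on the log2 scale. Pgr, the overexpressed gene, stood at 41.7, 49.5 and 42.8 FPKM in ePRAoe and at 38.1, 38.3 and 45.9 FPKM in ePRBoe, against 17.4, 3.82 and 6.62 FPKM in Wnt7acre. All libraries of both overexpressing genotypes were above every control, with log2 fold changes of 2.38 in ePRAoe (adjusted p = 0.00483) and 2.27 in ePRBoe (adjusted p = 0.0168). Here and below a log2 fold change is that of FPKM + 1 after a term for the sequencing run, the adjusted p comes from limma (two-sided, Benjamini-Hochberg over all genes tested), and a gene is called where it is under 0.05. The ePRBoe call for Pgr was lost without ePRAoe 2, ePRBoe 2, ePRBoe 3 or Wnt7acre 3 (adjusted p 0.0516 to 0.187). The libraries came from 3 sequencing runs: run 1 held ePRAoe 2, all ePRBoe libraries and Wnt7acre 3, run 2 held ePRAoe 3 and Wnt7acre 2, and run 3 held ePRAoe 1 and Wnt7acre 1. All 10 luminal epithelium markers were detected, and they summed to 1147 to 1672 FPKM in ePRAoe, 1389 to 1596 in ePRBoe and 1434 to 1654 in Wnt7acre. Against Wnt7acre, 1 of them was called higher and 2 lower in ePRAoe, and 0 were called in ePRBoe.

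Markers of other cell types differed between the genotypes as well. The 14 stroma markers summed to 241 to 404 FPKM in ePRAoe and 411 to 568 in ePRBoe, against 89.7 to 124 in Wnt7acre; 10 rose in ePRAoe and 12 in ePRBoe. The 12 immune markers summed to 133 to 173 FPKM in ePRAoe and 405 to 479 in ePRBoe, against 198 to 412 in Wnt7acre; 4 fell in ePRAoe and 6 rose in ePRBoe. None of the stroma or immune markers was at 0 in any library. Endothelium markers summed to 16.3 to 34.0, 50.6 to 74.9 and 15.05 to 22.5 FPKM in ePRAoe, ePRBoe and Wnt7acre, and smooth muscle markers to 16.6 to 30.2, 38.0 to 119 and 11.7 to 21.5 FPKM. Gland markers summed to 4.23 to 13.0, 4.995 to 11.1 and 1.05 to 16.3 FPKM. Of 7 endothelium and 4 smooth muscle markers tested, 0 were called in ePRAoe, and 2 and 1 rose in ePRBoe. Of 2 gland markers tested, 1 rose in ePRAoe and 0 were called in ePRBoe. Over all genes tested 16.2% were called in ePRAoe (7.2% higher, 8.98% lower) and 8.89% in ePRBoe (6.41% higher, 2.48% lower). In such bulk material fewer cells of a type and less RNA per cell cannot be told apart, and the part these other cell types had in the results below was not tested.

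Under either isoform more of the inhibitors rose than fell, while with isoform A most of the proteases that changed fell. Genes at 1 FPKM or more in 3 or more libraries were tested. Of the 35 inhibitors tested, 9 rose and 3 fell in ePRAoe against Wnt7acre, which is 34.3%, and of the 36 proteases tested 2 rose and 9 fell, which is 30.6%. Of all 12347 genes tested in this comparison 16.2% were called, 7.2% as higher and 8.98% as lower. The median log2 fold change was 0.30 for the inhibitors and -0.46 for the proteases, beside -0.03 for all genes. Leaving out ePRAoe 2 or Wnt7acre 3 left 6 protease calls and 7 inhibitor calls, and leaving out ePRAoe 3 or Wnt7acre 2 left 8 and 7 with an inhibitor median of 0.03. The protease count was 7 when a mean of 5 FPKM or more was asked for, out of only 18 proteases then tested.

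In ePRBoe against Wnt7acre, 11 inhibitors rose and 0 fell (31.4% of those tested), while 3 proteases rose and 3 fell (16.7%). The share over all genes was 8.89%, with 6.41% higher and 2.48% lower. The medians were 0.88 for the inhibitors, 0.09 for the proteases and 0.10 for all genes. With median-of-ratios factors in place of the deposited scaling, the median of all genes moved to -0.03 and those of the inhibitors and proteases to 0.80 and -0.05, while 11 inhibitors rose and 0 fell as before. The calls over all genes split into 618 higher and 477 lower under those factors, beside 792 and 306. Without Wnt7acre 3, 5 inhibitor calls and 1 protease call were left, and the protease count was also 2 without ePRAoe 2, ePRBoe 2 or ePRBoe 3. Between the isoforms, in ePRBoe against ePRAoe, 2 inhibitors and 1 protease were called, all higher in ePRBoe, where 0.324% of all genes were called, 0.316% as higher and 0.0081% as lower. Both comparisons with Wnt7acre use the same control libraries.

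**Figure D1:**
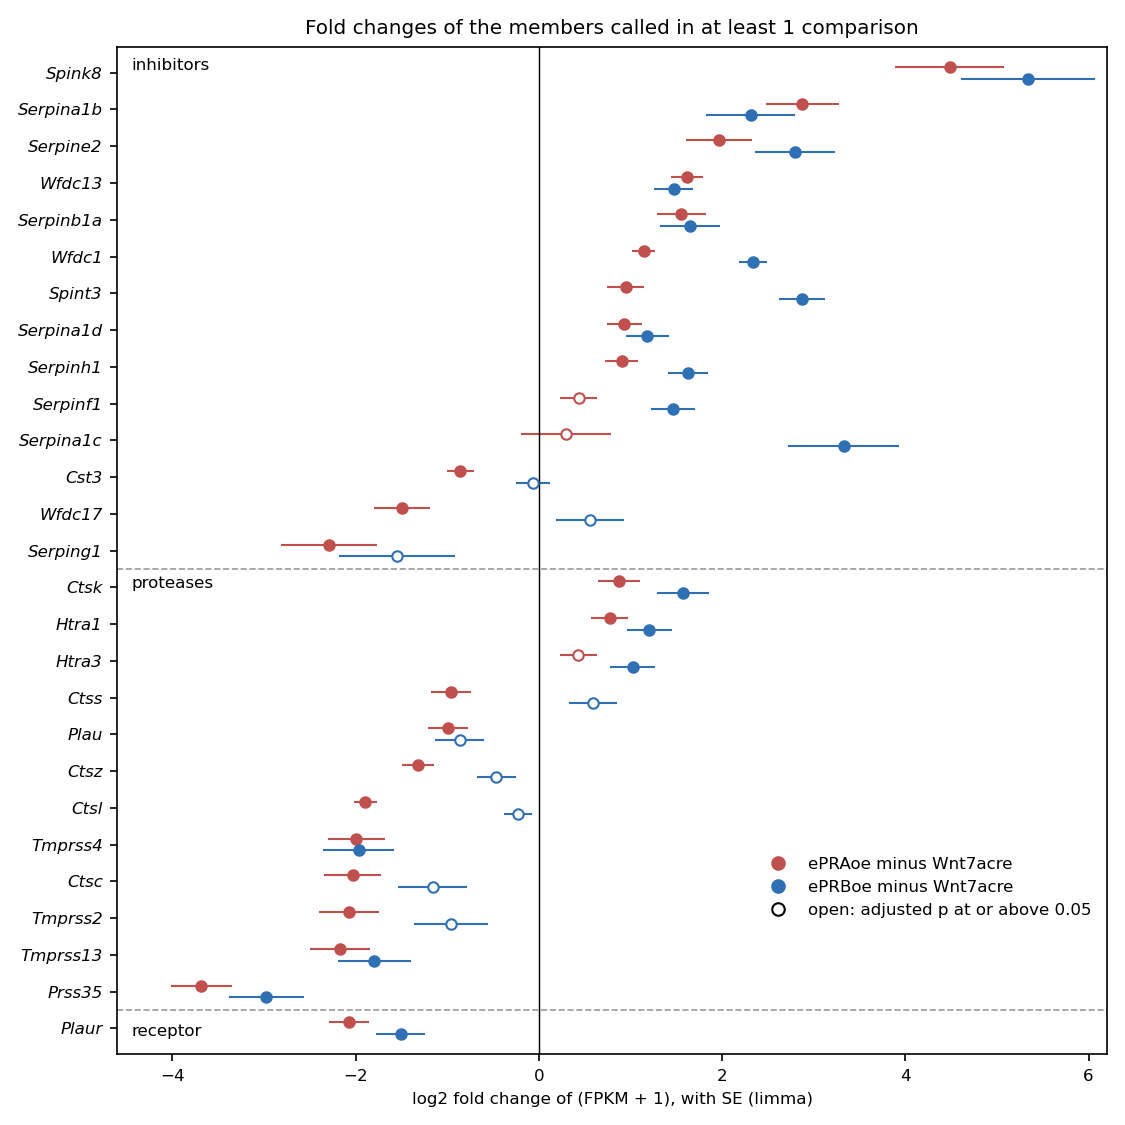
Log2 fold changes of FPKM + 1 with standard errors for the 27 members called in at least 1 comparison, ePRAoe minus Wnt7acre in red and ePRBoe minus Wnt7acre in blue, with open symbols where the adjusted p is 0.05 or more. The inhibitors in the upper block lie mostly right of 0, from Spink8 at 4.48 in ePRAoe and 5.33 in ePRBoe down to Serping1 at -2.29 in ePRAoe, and the proteases mostly left of 0, down to Prss35 at -3.68 in ePRAoe.

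Spink8, a Kazal-type inhibitor by its sequence family, had the largest rise of all members in both comparisons with Wnt7acre. It lies at chr9:109812280-109826633 on the plus strand of mm10. It stood at 30.2, 187 and 89.7 FPKM in ePRAoe and at 137, 233 and 273 FPKM in ePRBoe, against 4.93, 1.57 and 2.13 FPKM in Wnt7acre. Every library of both overexpressing genotypes was above the highest control, and ePRAoe 1 was the lowest of the 6 while its run partner Wnt7acre 1 was the highest control. The log2 fold change was 4.48 ± 0.60 (SE) in ePRAoe (22.4-fold, adjusted p = 0.00439) and 5.33 ± 0.73 in ePRBoe (40.3-fold, adjusted p = 0.00883). Within runs 1, 2 and 3 the ePRAoe library was above its control by 5.91, 5.14 and 2.40, and within run 1 ePRBoe by 6.05. The ePRAoe call held with any library left out, at 3.77 without ePRAoe 2 or Wnt7acre 3 and 5.52 without ePRAoe 1 or Wnt7acre 1. The ePRBoe call was lost without Wnt7acre 3, with a log2 fold change of 3.91 (adjusted p = 0.108), and without ePRAoe 2 the change was 6.05. The ePRBoe and ePRAoe libraries overlapped, with a difference of 0.85 ± 0.73 (adjusted p = 0.552).

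Of the WAP and Kunitz types, Wfdc1, Wfdc13 and Spint3 rose under both isoforms. Of the 2 Spint genes tested, 1 rose and 0 fell in each comparison with Wnt7acre. Of 13 Wfdc genes 9 were tested, and 2 rose and 1 fell in ePRAoe while 2 rose in ePRBoe. Wfdc1, which codes for the small WAP protein ps20, stood at 19.9, 16.7 and 26.0 FPKM in ePRAoe and at 43.7, 41.5 and 42.2 FPKM in ePRBoe, against 8.45, 9.62 and 8.20 FPKM in Wnt7acre. The 3 genotypes formed 3 separate bands, the ePRBoe libraries differing among themselves by only 1.15 FPKM (SD, n = 3). Its log2 fold change was 1.15 ± 0.13 in ePRAoe (adjusted p = 0.00243) and 2.34 ± 0.15 in ePRBoe (adjusted p = 0.00169), and both calls held with any library left out. Wfdc1 lies on its own at chr8:119666365-119688222, apart from the other WAP genes.

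Spint3 and Wfdc13 lie in the WAP gene cluster of chromosome 2, where 12 members stand between positions 164189231 and 164841032. Of these, 9 were tested, and 2 rose in ePRAoe and 2 in ePRBoe against Wnt7acre, Spint3 and Wfdc13 each time. Spint3, a Kunitz-type gene, stood at 4.39, 3.29 and 1.65 FPKM in ePRAoe and at 13.6, 18.1 and 13.2 FPKM in ePRBoe, against 1.24, 0.823 and 1.10 FPKM in Wnt7acre. No library of one genotype reached into the range of another. Its log2 fold change was 0.95 ± 0.21 in ePRAoe (adjusted p = 0.0211) and 2.87 ± 0.25 in ePRBoe (7.31-fold, adjusted p = 0.003). The ePRBoe call held with any library left out, and the ePRAoe call was lost without ePRAoe 1, ePRAoe 2, Wnt7acre 1 or Wnt7acre 3 (adjusted p 0.053 to 0.0993). Wfdc13 stood at 60.3, 38.2 and 26.1 FPKM in ePRAoe and at 47.1, 33.1 and 36.7 FPKM in ePRBoe, against 15.9, 7.36 and 14.9 FPKM in Wnt7acre. All 6 overexpressing libraries were above every control, and here the isoforms overlapped. On the log2 scale it rose by 1.62 ± 0.17 in ePRAoe (adjusted p = 0.00233) and 1.47 ± 0.21 in ePRBoe (adjusted p = 0.00975), and both calls held with any library left out. Their neighbour Wfdc10 averaged 49.3 ± 14.8 FPKM in ePRAoe and 83.8 ± 26.1 in ePRBoe, against 27.8 ± 12.7 in Wnt7acre (SD, n = 3 each), and was not called (adjusted p = 0.184 in ePRAoe and 0.0571 in ePRBoe).

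**Figure D2:**
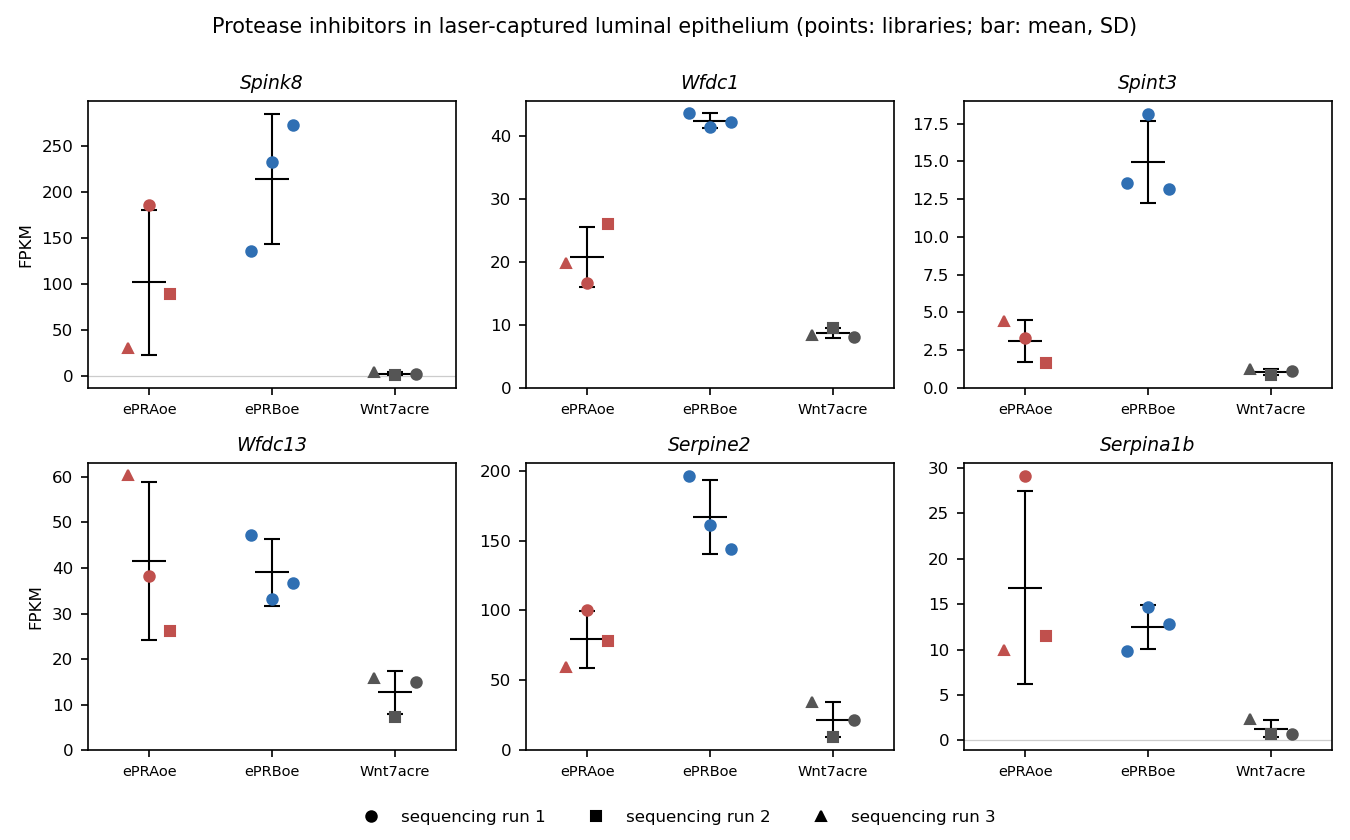
FPKM of 6 inhibitors in each library (points, marker shape by sequencing run), with the mean and SD of each genotype (n = 3). All ePRAoe and ePRBoe libraries lie above all Wnt7acre libraries for each of the 6 genes, and for Wfdc1, Spint3 and Serpine2 the ePRBoe libraries also lie above those of ePRAoe. Other called inhibitors are not shown, among them Cst3, Serping1 and Wfdc17, which fell in ePRAoe. The share of all genes without such overlap was not computed.

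The serpins that rose included alpha-1-antitrypsin copies, protease nexin 1 and a collagen chaperone. Of 12 Serpina genes 5 were tested, and 2 rose in ePRAoe and 3 in ePRBoe. The Serpina1 genes code for forms of alpha-1-antitrypsin, known as the main inhibitor of neutrophil elastase, and in the mouse they are closely related copies side by side on chromosome 12. What each copy inhibits was not examined. Their promoters show how alike the copies are, so those of the 4 tested copies follow, with that of Spint3 for contrast, from RefSeq (GRCm38.p6), each running from 250 bases before to 50 bases after the start site, with the hexamer TGTTCT in capitals.
Serpina1b, chr12:103738140-103738439, minus strand: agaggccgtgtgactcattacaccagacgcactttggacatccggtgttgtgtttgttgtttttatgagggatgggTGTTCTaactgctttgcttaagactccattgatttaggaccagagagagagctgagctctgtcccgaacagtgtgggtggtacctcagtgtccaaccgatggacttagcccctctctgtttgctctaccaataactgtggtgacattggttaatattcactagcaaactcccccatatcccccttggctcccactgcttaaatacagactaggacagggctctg
Serpina1c, chr12:103904901-103905200, minus strand: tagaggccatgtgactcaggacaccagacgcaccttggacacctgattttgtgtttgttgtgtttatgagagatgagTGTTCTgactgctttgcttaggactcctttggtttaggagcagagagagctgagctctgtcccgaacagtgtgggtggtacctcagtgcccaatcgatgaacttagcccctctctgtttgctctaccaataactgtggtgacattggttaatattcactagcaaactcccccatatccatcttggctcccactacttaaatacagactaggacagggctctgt
Serpina1d, chr12:103773584-103773883, minus strand: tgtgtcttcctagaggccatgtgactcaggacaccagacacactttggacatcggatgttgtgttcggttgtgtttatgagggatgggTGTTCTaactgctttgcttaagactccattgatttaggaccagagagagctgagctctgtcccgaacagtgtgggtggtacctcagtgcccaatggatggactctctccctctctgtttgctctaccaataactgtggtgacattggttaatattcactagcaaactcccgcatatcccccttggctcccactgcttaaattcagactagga
Serpina1e, chr12:103956848-103957147, minus strand: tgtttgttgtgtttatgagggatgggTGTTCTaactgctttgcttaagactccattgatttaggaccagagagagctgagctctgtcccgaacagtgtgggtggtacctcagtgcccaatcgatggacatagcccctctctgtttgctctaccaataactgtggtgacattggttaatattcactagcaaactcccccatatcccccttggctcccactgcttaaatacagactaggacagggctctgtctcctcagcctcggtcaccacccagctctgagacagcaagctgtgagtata
Spint3, chr2:164573407-164573706, minus strand: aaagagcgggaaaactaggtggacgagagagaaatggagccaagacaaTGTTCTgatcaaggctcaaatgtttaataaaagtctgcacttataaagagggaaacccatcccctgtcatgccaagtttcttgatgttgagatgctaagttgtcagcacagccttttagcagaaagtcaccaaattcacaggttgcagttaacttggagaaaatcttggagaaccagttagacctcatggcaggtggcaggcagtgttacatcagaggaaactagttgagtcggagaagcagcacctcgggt
The windows of Serpina1b and Serpina1c were 91.4% identical, those of Serpina1b and Serpina1d 86.9%, and that of Serpina1e was 69.3% identical to Serpina1b, since its annotated start site lies at another point of the shared sequence. TGTTCT is the conserved hexamer of the progesterone response element. It stood at -174, -173, -162 and -224 from the start sites of Serpina1b, Serpina1c, Serpina1d and Serpina1e, and at -202 in Spint3. On either strand it was in 28 of the 92 windows of the 78 members matched (30.4%), in 8 of the 19 windows of called members (42.1%) and in 19.0% of all 32851 windows. The 8 include the much alike windows of Serpina1b, Serpina1c and Serpina1d, which are not separate finds. Called members such as Spink8, Wfdc1, Wfdc13, Tmprss4 and Tmprss13 had no window, and the shares were not tested against each other. The full progesterone response element, searched on both strands, was in 1 of the 92 windows (Serpina3n, which was tested and not called), in 0 of the 19, and in 0.475% of all windows. TGTTCT can overlap the end of the full element, and a match of letters is a description only.

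Serpina1b stood at 9.93, 29.0 and 11.5 FPKM in ePRAoe and at 9.87, 14.7 and 12.7 FPKM in ePRBoe, against 2.40, 0.747 and 0.747 FPKM in Wnt7acre. All overexpressing libraries were above all controls, with log2 fold changes of 2.87 ± 0.40 in ePRAoe (7.33-fold, adjusted p = 0.00481) and 2.31 ± 0.49 in ePRBoe (adjusted p = 0.0289). Serpina1c stood at 0.053, 0 and 4.96 FPKM in ePRAoe and at 5.39, 20.7 and 4.80 FPKM in ePRBoe, against 0, 2.24 and 0.053 FPKM in Wnt7acre, so that only the ePRBoe libraries were all above the controls (log2 fold change 3.33 ± 0.60, adjusted p = 0.0183, against 0.29 in ePRAoe, adjusted p = 0.727). Serpina1d was low, at 1.95, 0.896 and 0.896 FPKM in ePRAoe and 1.48, 1.16 and 1.16 FPKM in ePRBoe, against 0.316, 0.158 and 0 FPKM in Wnt7acre, and was called in both (log2 fold change 0.93, adjusted p = 0.0169, and 1.18, adjusted p = 0.0234). Serpina1e, the most abundant copy, averaged 337 ± 135 FPKM in ePRAoe and 248 ± 97.5 in ePRBoe, against 228 ± 95.9 in Wnt7acre, and was not called (adjusted p = 0.198 in ePRAoe and 0.511 in ePRBoe). Serpina1a was not tested, its highest library reaching 2.67 FPKM. Of the 50-base stretches of these transcripts, 29.5% in Serpina1b, 74.2% in Serpina1c, 50.9% in Serpina1d and 34.6% in Serpina1e also occur in other genes, and the annotated span of Serpina1b takes in that of Serpina1d, so the split of reads between the copies is uncertain. The ePRAoe call of Serpina1b held with any library left out, at 2.26 without ePRAoe 2 or Wnt7acre 3 and 3.47 without ePRAoe 1 or Wnt7acre 1. The ePRBoe calls of the 3 copies were lost without Wnt7acre 3 (adjusted p 0.124 to 0.291), where the log2 fold change of Serpina1b was 1.08, and it was 2.93 without ePRAoe 2. That of Serpina1b was lost too without ePRAoe 3, Wnt7acre 2 or any ePRBoe library (0.0537 to 0.0849), that of Serpina1c without ePRAoe 2 (0.0821) or without the run term (0.0544, log2 fold change 2.63; 2.72 without ePRBoe 2) and that of Serpina1d without ePRAoe 2 or any ePRBoe library (0.0656 to 0.0801), while the ePRAoe call of Serpina1d was lost without ePRAoe 2 or Wnt7acre 3 (0.0736 and 0.0745).

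Serpine2 (protease nexin 1), which inhibits thrombin, urokinase and other trypsin-like proteases at the cell surface, stood at 59.2, 100 and 77.9 FPKM in ePRAoe and at 196, 161 and 144 FPKM in ePRBoe, against 34.5, 9.21 and 21.2 FPKM in Wnt7acre. The genotypes did not overlap, and the order ran from ePRBoe through ePRAoe to Wnt7acre. Serpine2 changed by 1.97 ± 0.36 in ePRAoe (adjusted p = 0.0116) and 2.79 ± 0.44 in ePRBoe (6.94-fold, adjusted p = 0.012). The difference between ePRBoe and ePRAoe of 0.83 did not pass the test (adjusted p = 0.346). The ePRAoe call was lost without ePRAoe 2, ePRAoe 3, Wnt7acre 2 or Wnt7acre 3 (adjusted p 0.0549 to 0.0736), and the ePRBoe call without ePRAoe 2 or Wnt7acre 3 (0.0517 and 0.138), while the ePRAoe change was 2.57 without ePRAoe 1 or Wnt7acre 1.

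Serpinh1 (HSP47), a chaperone of collagen that does not inhibit proteases, stood at 20.5, 16.2 and 29.5 FPKM in ePRAoe and at 32.1, 29.5 and 33.0 FPKM in ePRBoe, against 11.6, 10.3 and 11.0 FPKM in Wnt7acre. Both genotypes were above all controls (log2 fold change 0.90 ± 0.18, adjusted p = 0.0161, in ePRAoe and 1.63 ± 0.22, adjusted p = 0.00874, in ePRBoe). Serpinf1 (PEDF), likewise without protease inhibition, stood at 128, 26.2 and 38.1 FPKM in ePRAoe and at 68.2, 67.4 and 67.5 FPKM in ePRBoe, against 66.8, 25.5 and 29.9 FPKM in Wnt7acre. The ePRBoe libraries were just above the highest control, and the call rested on the run term, with a log2 fold change of 1.46 (adjusted p = 0.0136) beside 0.85 without that term (adjusted p = 0.321) and 2.08 without Wnt7acre 3. In ePRAoe it was not called (0.43, adjusted p = 0.179). The stroma markers moved the same way, at 241 to 404 FPKM in ePRAoe and 411 to 568 in ePRBoe, against 89.7 to 124 in Wnt7acre, and their part in the values of Serpine2, Serpinh1 and Serpinf1 was not tested. Serpinb1a, an inhibitor of neutrophil proteases, stood at 3.29, 5.55 and 6.62 FPKM in ePRAoe and 5.15, 5.31 and 7.57 FPKM in ePRBoe, against 1.31, 0.674 and 1.19 FPKM in Wnt7acre, above the controls throughout (1.55, adjusted p = 0.0093, and 1.65, adjusted p = 0.0232). The ePRAoe call of Serpinh1 was lost without ePRAoe 3 or Wnt7acre 2 (0.0539 and 0.052), that of Serpinb1a without ePRAoe 2 or Wnt7acre 3 (0.0585 and 0.0565), and the ePRBoe call of Serpinb1a without ePRAoe 2, Wnt7acre 3 or any ePRBoe library (0.051 to 0.178).

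The inhibitors that fell did so in ePRAoe: Cst3, Serping1 and Wfdc17. Cst3 (cystatin C), a secreted inhibitor of cysteine cathepsins, stood at 76.6, 91.9 and 85.6 FPKM in ePRAoe and at 136, 162 and 141 FPKM in ePRBoe, against 137, 190 and 140 FPKM in Wnt7acre. The ePRAoe libraries were all below the controls (log2 fold change -0.86 ± 0.15, adjusted p = 0.0104), while ePRBoe lay among them (-0.06, adjusted p = 0.862). The difference between ePRBoe and ePRAoe was 0.79 (adjusted p = 0.106). Serping1 (C1 inhibitor), which blocks the first proteases of complement, stood at 225, 25.6 and 66.2 FPKM in ePRAoe and at 97.7, 66.9 and 47.9 FPKM in ePRBoe, against 329, 456 and 312 FPKM in Wnt7acre. All 6 overexpressing libraries were below the controls, with ePRAoe 1 the closest to them. The log2 fold change was -2.29 ± 0.52 in ePRAoe (adjusted p = 0.0247), and -3.56, -2.77 and -0.55 within runs 1, 2 and 3. In ePRBoe it was -1.55 ± 0.64 and did not pass the test (adjusted p = 0.176). Wfdc17, a WAP gene, stood at 4.05, 0.324 and 0.324 FPKM in ePRAoe and 3.56, 8.75 and 4.54 FPKM in ePRBoe, against 9.72, 2.75 and 3.89 FPKM in Wnt7acre, and was called in ePRAoe although the groups overlapped (-1.49, adjusted p = 0.0169). The ePRAoe calls were lost for Cst3 without ePRAoe 3 or Wnt7acre 2 (0.0531 and 0.0519), and for Serping1 and Wfdc17 without ePRAoe 2, ePRAoe 3, Wnt7acre 2 or Wnt7acre 3 (0.127 to 0.13 and 0.0813 to 0.0989). The log2 fold change of Serping1 was -1.66 without ePRAoe 2 or Wnt7acre 3 and -3.16 without ePRAoe 1 or Wnt7acre 1, and without the run term the adjusted p of Wfdc17 was 0.123.

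Of the 5 most abundant inhibitors, Serping1 and Cst3 were called, and Wfdc2, Serpina1e and Spint2 were not. Wfdc2 (HE4), a secreted WAP protein of the reproductive tract, stood at 1031, 777 and 631 FPKM in ePRAoe and at 1106, 1074 and 1181 FPKM in ePRBoe, against 1262, 1165 and 1058 FPKM in Wnt7acre. The ePRAoe libraries were all lower than the lowest control, yet the change of -0.54 did not pass the test (adjusted p = 0.125), and in ePRBoe it was 0.03 (adjusted p = 0.952). Spint2 (HAI-2), which inhibits matriptase and prostasin, averaged 179 ± 34.9 FPKM in ePRAoe and 207 ± 16.3 in ePRBoe, against 268 ± 40.4 in Wnt7acre, with adjusted p of 0.082 and 0.3. In all, 21 tested inhibitors were called in no comparison, with means over the 9 libraries of 0.844 to 1032 FPKM, and 17 were not tested. Among the tested ones without a call, Wfdc15b and Wfdc18 followed Wfdc10 in level.

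Among the proteases the largest fall was that of Prss35, a secreted serine protease family member whose catalytic serine is replaced. It lies at chr9:86743649-86758443 on the plus strand of mm10. It was listed at 0, 0 and 0.151 FPKM in ePRAoe and at 0.904, 0.181 and 0.06 FPKM in ePRBoe, against 9.64, 25.8 and 7.56 FPKM in Wnt7acre. No overexpressing library reached 1 FPKM and no control was below 7.56 FPKM. The log2 fold change of FPKM + 1 was -3.68 ± 0.33 in ePRAoe (adjusted p = 0.00171) and -2.97 ± 0.41 in ePRBoe (adjusted p = 0.00885), a scale that understates the fall of so low a gene. The within-run values were -3.10, -4.54 and -3.41 in ePRAoe and -2.68 in ePRBoe, and both calls held with any library left out, that of ePRBoe at -3.56 without Wnt7acre 3. The other 9 tested Prss genes and the 6 tested kallikreins had no call in any comparison.

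The membrane-bound serine proteases fell together in ePRAoe: all 3 tested Tmprss genes were lower there, and 2 of them in ePRBoe. These proteins sit in the plasma membrane with the protease domain outside, and some of them are known to activate the epithelial sodium channel and other membrane proteins. Tmprss2 stood at 84.0, 25.6 and 43.1 FPKM in ePRAoe and at 101, 60.2 and 58.6 FPKM in ePRBoe, against 183, 232 and 172 FPKM in Wnt7acre. Its libraries were below all controls in both genotypes, with a log2 fold change of -2.07 ± 0.33 in ePRAoe (4.2-fold lower, adjusted p = 0.00706) and -0.96 in ePRBoe, which did not pass the test (adjusted p = 0.185). Tmprss4 stood at 10.3, 17.9 and 13.3 FPKM in ePRAoe and at 25.2, 15.2 and 14.5 FPKM in ePRBoe, against 25.5, 101 and 70.2 FPKM in Wnt7acre, where ePRBoe 1 came close to the lowest control. Its log2 fold change was -1.99 ± 0.32 in ePRAoe (adjusted p = 0.00706) and -1.97 ± 0.39 in ePRBoe (adjusted p = 0.023). Tmprss13 stood at 0.258, 0.844 and 1.05 FPKM in ePRAoe and at 3.07, 1.03 and 0.773 FPKM in ePRBoe, against 3.30, 10.6 and 7.69 FPKM in Wnt7acre, with no overlap (-2.17 ± 0.33, adjusted p = 0.00622, and -1.79 ± 0.40, adjusted p = 0.0348). Prss8 (prostasin), which works with matriptase in the same epithelial cascade, averaged 87.9 ± 19.1 FPKM in ePRAoe and 84.5 ± 13.98 in ePRBoe, against 132 ± 18.4 in Wnt7acre, and did not pass the test (adjusted p = 0.0988 and 0.159). The ePRAoe calls of Tmprss4 and Tmprss13 held with any library left out, and that of Tmprss2 was lost without ePRAoe 2, ePRAoe 3, Wnt7acre 2 or Wnt7acre 3 (0.05 to 0.0516). The ePRBoe calls were lost without Wnt7acre 3, ePRAoe 2, ePRBoe 2 or ePRBoe 3 (Tmprss4, 0.0688 to 0.167; Tmprss13, 0.0863 to 0.233), and that of Tmprss13 also without ePRAoe 3 or Wnt7acre 2 (0.066 and 0.0669).

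**Figure D3:**
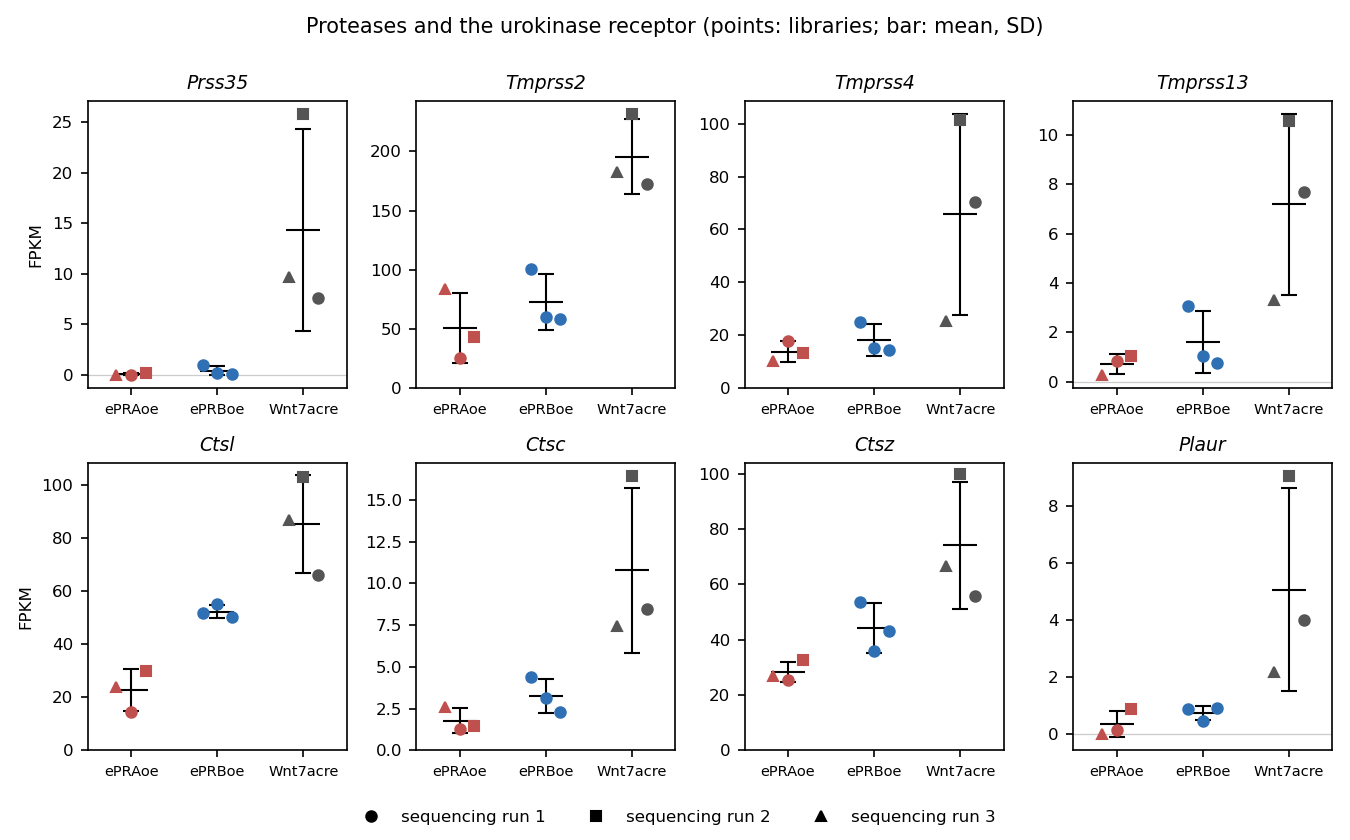
FPKM of 7 proteases and of Plaur in each library (points, marker shape by sequencing run), with the mean and SD of each genotype (n = 3). In all 8 genes the ePRAoe and ePRBoe libraries lie below every Wnt7acre library, near 0 for Prss35, and for Ctsl the ePRAoe libraries lie lowest at 14.4 to 30.0 FPKM with ePRBoe at 50.2 to 55.0 FPKM between them and Wnt7acre. The other called proteases are not shown: Ctsk, Htra1 and Htra3, which rose, and Ctss and Plau. The share of all genes without such overlap was not computed.

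The urokinase system was low in all genotypes and lower in the overexpressing ones. Plau (urokinase), which turns plasminogen into plasmin, stood at 0.13, 0.389 and 0.292 FPKM in ePRAoe and at 0.681, 0.13 and 0.454 FPKM in ePRBoe, against 1.46, 1.75 and 1.36 FPKM in Wnt7acre. Its receptor Plaur, which holds it at the cell surface, stood at 0, 0.151 and 0.857 FPKM in ePRAoe and at 0.857, 0.454 and 0.907 FPKM in ePRBoe, against 2.17, 9.02 and 3.98 FPKM in Wnt7acre. For both genes every overexpressing library was below every control. Plau fell in ePRAoe (log2 fold change -0.99, adjusted p = 0.0226) and had -0.87 in ePRBoe (adjusted p = 0.0921). Plaur fell in ePRAoe (-2.07, adjusted p = 0.00219), which held with any library left out, and in ePRBoe (-1.51, adjusted p = 0.0171). The ePRAoe call of Plau was lost without any ePRAoe or Wnt7acre library (0.0531 to 0.101), and the ePRBoe call of Plaur without ePRAoe 2, ePRBoe 2 or Wnt7acre 3 (0.0554 to 0.155). Plat, the tissue-type plasminogen activator, stood at 124, 8.63 and 11.9 FPKM in ePRAoe and at 26.5, 30.9 and 13.6 FPKM in ePRBoe, against 62.2, 21.2 and 51.5 FPKM in Wnt7acre. It was not called (adjusted p = 0.416 and 0.821), and ePRAoe 1 stood above all other libraries.

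Of 13 cathepsin genes 12 were tested, and 4 fell and 1 rose in ePRAoe while 1 rose in ePRBoe. Ctsl, a cysteine endopeptidase of the lysosome that is also secreted, lies at chr13:64359337-64370890 on the minus strand. It stood at 23.9, 14.4 and 30.0 FPKM in ePRAoe and at 51.7, 55.0 and 50.2 FPKM in ePRBoe, against 86.8, 103 and 66.3 FPKM in Wnt7acre. The 3 genotypes did not overlap, with ePRBoe in the middle. The log2 fold change was -1.90 ± 0.13 in ePRAoe (3.72-fold lower, adjusted p = 0.00105), -2.12, -1.75 and -1.82 within runs 1, 2 and 3, and the call held with any library left out. In ePRBoe it was -0.22 ± 0.15 after the run term and -0.34 within run 1 (adjusted p = 0.411).

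Ctsz (cathepsin X), a carboxypeptidase, stood at 26.9, 25.6 and 32.6 FPKM in ePRAoe and at 53.7, 35.8 and 43.0 FPKM in ePRBoe, against 66.5, 99.9 and 55.9 FPKM in Wnt7acre. Ctsc (dipeptidyl peptidase 1), which activates serine proteases of immune cell granules, stood at 2.63, 1.26 and 1.49 FPKM in ePRAoe and at 4.37, 3.11 and 2.32 FPKM in ePRBoe, against 7.42, 16.4 and 8.48 FPKM in Wnt7acre. For both genes ePRAoe was below all controls, with log2 fold changes of -1.32 ± 0.18 for Ctsz (adjusted p = 0.0044) and -2.03 ± 0.31 for Ctsc (adjusted p = 0.00641), which held with any library left out. In ePRBoe the values were -0.46 (adjusted p = 0.227) and -1.16 (adjusted p = 0.105). Ctss, a cathepsin of antigen-presenting cells, stood at 11.6, 4.64 and 5.92 FPKM in ePRAoe and at 19.5, 18.9 and 14.1 FPKM in ePRBoe, against 29.0, 7.94 and 12.5 FPKM in Wnt7acre. It was called in ePRAoe although the groups overlapped (-0.96, adjusted p = 0.024), and the call was lost without the run term (0.178) and without ePRAoe 1, ePRAoe 2, Wnt7acre 1 or Wnt7acre 3 (0.0648 to 0.127). In ePRBoe it was not called (0.59, adjusted p = 0.21). The immune markers stood at 133 to 173 FPKM in ePRAoe and 405 to 479 in ePRBoe, against 198 to 412 in Wnt7acre, and their part in the values of Ctsl, Ctsz, Ctsc and Ctss was not tested.

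The proteases that rose were Ctsk, Htra1 and Htra3, all at low levels. Ctsk, a collagen-cutting cathepsin, stood at 0.865, 3.70 and 3.22 FPKM in ePRAoe and at 4.75, 6.10 and 5.76 FPKM in ePRBoe, against 0.528, 1.10 and 0.865 FPKM in Wnt7acre. The ePRBoe libraries were above all others, and ePRAoe 1 lay among the controls (log2 fold change 0.87, adjusted p = 0.0405, in ePRAoe and 1.57, adjusted p = 0.0172, in ePRBoe). Htra1, a secreted serine protease, stood at 4.10, 5.63 and 6.93 FPKM in ePRAoe and at 8.20, 10.03 and 7.87 FPKM in ePRBoe, against 2.65, 2.27 and 3.50 FPKM in Wnt7acre, with no overlap (0.77, adjusted p = 0.039, and 1.21, adjusted p = 0.0263). Htra3, its relative, stood at 0.661, 1.41 and 1.61 FPKM in ePRAoe and at 1.89, 2.64 and 2.14 FPKM in ePRBoe, against 0.419, 1.15 and 0.397 FPKM in Wnt7acre, and rose in ePRBoe (1.02, adjusted p = 0.0443) but was not called in ePRAoe (0.43, adjusted p = 0.187). None of these calls held with every library left out in turn. The ePRAoe calls of Ctsk and Htra1 were lost without ePRAoe 2, ePRAoe 3, Wnt7acre 2, Wnt7acre 3 or any ePRBoe library (0.0651 to 0.185 and 0.0626 to 0.16), and that of Ctsk without the run term (0.114). The ePRBoe calls were lost for Ctsk without ePRBoe 2, ePRBoe 3 or Wnt7acre 3 (0.056 to 0.194), for Htra1 without ePRAoe 2, Wnt7acre 3 or any ePRBoe library (0.0644 to 0.124), and for Htra3 also without ePRAoe 3 or Wnt7acre 2 (0.0592 to 0.356). The summed stroma markers given above moved the same way as these 3 genes, and their part was not tested.

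Ctsd (cathepsin D), the most abundant member, made up most of the protease total in all but 1 library. Over all 50 proteases the sums were 3371, 3388 and 2322 FPKM in ePRAoe and 3016, 2854 and 3365 FPKM in ePRBoe, against 3473, 2191 and 2526 FPKM in Wnt7acre, and the genotypes overlapped, with means of 3027, 3078 and 2730. Ctsd stood at 2490, 2824 and 1705 FPKM in ePRAoe and at 2107, 2049 and 2624 FPKM in ePRBoe, against 2226, 946 and 1513 FPKM in Wnt7acre, and was not called (log2 fold change 0.64, adjusted p = 0.153, and 0.44, adjusted p = 0.459). It made up 73.4% to 83.3% of the summed protease FPKM in ePRAoe and 69.9% to 78.0% in ePRBoe, against 43.2% to 64.1% in Wnt7acre, so its share was higher in every overexpressing library. The other 49 proteases together came to 881, 564 and 617 FPKM in ePRAoe and to 909, 805 and 741 FPKM in ePRBoe, against 1247, 1245 and 1013 FPKM in Wnt7acre. These sums without Ctsd were below the lowest control in all 6 overexpressing libraries. Ctsb, a cysteine cathepsin and the next in level, averaged 242 ± 55.7 FPKM in ePRAoe and 213 ± 25.03 in ePRBoe, against 304 ± 73.3 in Wnt7acre, and was not called (adjusted p = 0.201 and 0.331). The inhibitors other than Wfdc2 summed to 1189 ± 246 FPKM in ePRAoe and 1608 ± 287 in ePRBoe, against 1252 ± 41.4 in Wnt7acre (SD, n = 3 each), with ePRAoe on both sides of the controls. Of the Ctsd transcripts' 50-base stretches 32.4% also occur in the gene model Gm49369, so its reads could be split in counting.

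**Figure D4:**
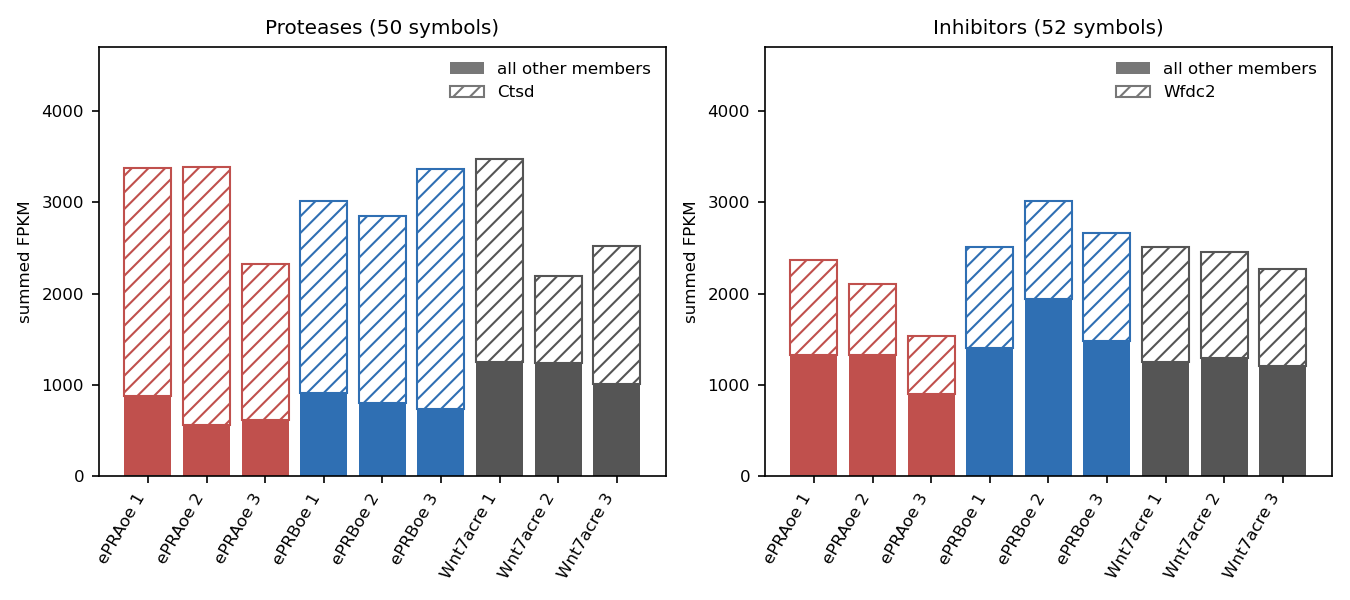
Summed FPKM of the 50 proteases (left) and the 52 inhibitors (right) in each library, with Ctsd and Wfdc2 hatched. The filled part of the protease bars is 564 to 881 FPKM in ePRAoe and 741 to 909 FPKM in ePRBoe, below the 1013 to 1247 FPKM of Wnt7acre.

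The direct comparison of the isoforms asks which members differ between overexpression of B and of A. Wfdc1, Spint3 and Ctsl were higher in ePRBoe than in ePRAoe. The differences on the log2 scale were 1.20 ± 0.15 for Wfdc1 (2.29-fold, adjusted p = 0.0369), 1.92 ± 0.25 for Spint3 (3.79-fold, adjusted p = 0.0369) and 1.67 ± 0.15 for Ctsl (3.19-fold, adjusted p = 0.0193). In each gene the lowest ePRBoe library was above the highest ePRAoe library. Within run 1, where ePRBoe has 3 libraries and ePRAoe 1, the differences were 1.30, 1.88 and 1.79. The calls were lost when single libraries were left out: Ctsl without ePRAoe 2, ePRBoe 1 or ePRBoe 2 (0.083 to 0.421), Wfdc1 without ePRAoe 2, Wnt7acre 3 or any ePRBoe library (0.0602 to 0.504), and Spint3 without ePRAoe 2, ePRAoe 3, Wnt7acre 2, Wnt7acre 3 or any ePRBoe library (0.0555 to 0.504). Without the run term the adjusted p was 0.0764 for Wfdc1 and 0.0948 for Ctsl, and with median-of-ratios factors it was 0.0672 for Wfdc1 and 0.0577 for Spint3. The median difference over the tested inhibitors was 0.56 and over the proteases 0.55, beside 0.15 over all genes. Markers of other cell types were higher in ePRBoe as well: of the 12 immune markers 6 were called higher in ePRBoe than in ePRAoe (median difference 1.70), among 40 calls over all genes, and the median of the 14 stroma markers was 0.75 with 0 called. Their part in the differences of the members was not tested. At an unadjusted p under 0.05 stood 9 of 35 inhibitors (25.7%) and 14 of 36 proteases (38.9%), beside 2310 of all 12347 genes (18.7%). Among those that missed the threshold was Ctsf, a cysteine cathepsin, chosen here after its values were seen, at 18.5, 17.5 and 23.1 FPKM in ePRBoe, against 4.74, 7.62 and 8.66 FPKM in ePRAoe (difference 1.29, adjusted p = 0.0885).

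Several members were high in a single library. With a rule set after the values were seen, at least 5 FPKM and at least 5 times the next library, 5 members were found. Wfdc18 stood at 217 FPKM in ePRBoe 2, with 17.9 FPKM as the next value, and Klk1, a tissue kallikrein, at 49.3 FPKM in the same library, with 1.43 as the next. The smooth muscle markers summed to 119 FPKM in ePRBoe 2, the highest of all libraries, with Myh11 at 9.49 FPKM there. Prss29 and Prss28, the implantation serine proteinases known from uterine glands, stood at 25.6 and 12.1 FPKM in ePRBoe 1, with 4.12 and 1.34 FPKM as the next values. Prss28 was listed at 0 in all ePRAoe libraries, and Prss29 at 0, 0 and 0.064 FPKM, against 1.87, 4.12 and 1.09 FPKM in Wnt7acre. Serpinb11 stood at 23.7 FPKM in Wnt7acre 1, with 0.09 as the next value. The 4 gland markers summed to 16.3 FPKM in Wnt7acre 1 (Cxcl15 at 8.47 FPKM), beside 13.0 FPKM in ePRAoe 1 and 11.1 FPKM in ePRBoe 1. The part of the muscle and gland material in these values was not tested. Wfdc18 and Prss29 were not called in any comparison, and Klk1, Prss28 and Serpinb11 were too low in the other libraries to be tested.

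**Figure D5:**
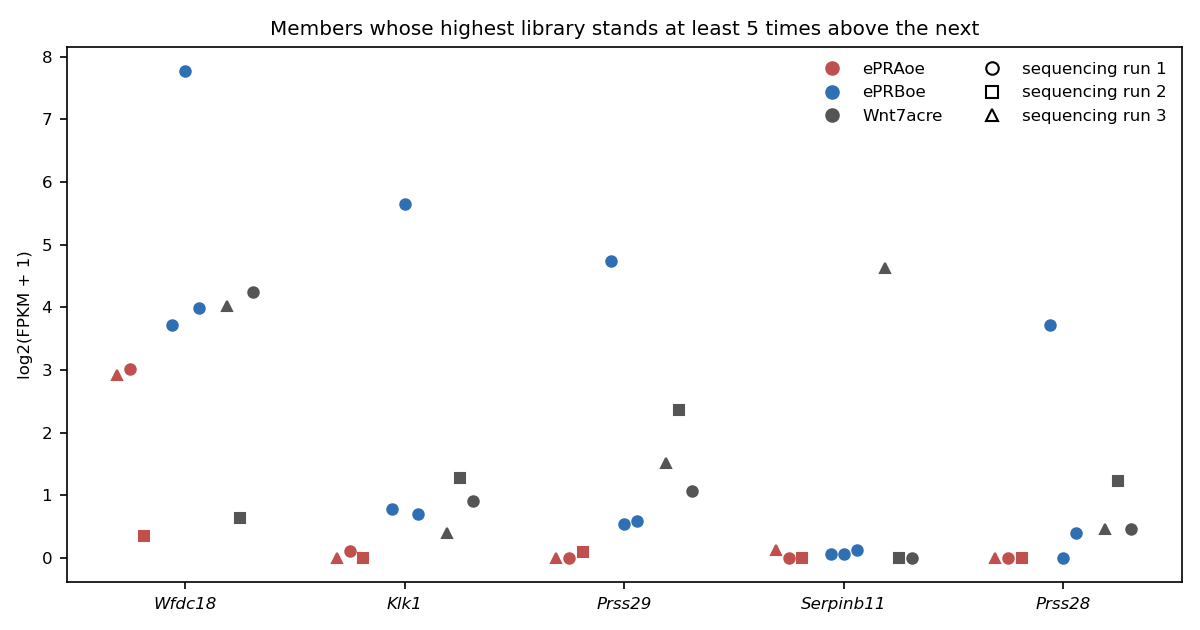
Log2 of FPKM + 1 in each library for the 5 members that were high in a single library, in red for ePRAoe, blue for ePRBoe and grey for Wnt7acre, with marker shape by sequencing run. Wfdc18 and Klk1 share their high library, ePRBoe 2, and Prss28 and Prss29 share theirs, ePRBoe 1.

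Other genes of the protease network were read from the same fit. Of 23 partners at the cell surface (other membrane proteases, sodium channel subunits, clotting and plasminogen receptors) 20 were tested, and 6 rose and 8 fell in ePRAoe while 6 rose and 4 fell in ePRBoe, with median log2 fold changes of -0.42 and 0.15. Over all genes tested 16.2% were called in ePRAoe (7.2% higher, 8.98% lower) and 8.89% in ePRBoe (6.41% higher, 2.48% lower). Scnn1g, which codes for the gamma chain of the sodium channel that such proteases activate, was listed at 0 in all ePRAoe libraries and at 0.101, 0 and 0.228 FPKM in ePRBoe, against 3.423, 11.1 and 4.44 FPKM in Wnt7acre (adjusted p = 0.00219 and 0.00976). Pcsk6, a proprotein convertase, fell to 0.159, 3.36 and 6.46 FPKM in ePRAoe and 8.66, 2.94 and 5.38 FPKM in ePRBoe, against 20.3, 64.2 and 37.5 FPKM in Wnt7acre (log2 fold change -3.49, adjusted p = 0.0021, and -2.80, adjusted p = 0.011). F3 (tissue factor), which starts clotting, fell in ePRAoe (-2.46, adjusted p = 0.00228) and in ePRBoe (-2.29, adjusted p = 0.00902). Thbd (thrombomodulin), which turns thrombin from clotting, fell in ePRAoe (-1.95, adjusted p = 0.00214) and had -0.78 in ePRBoe (adjusted p = 0.0928). The ePRAoe calls of these 4 genes held with any library left out. Without Wnt7acre 3 the ePRBoe calls of Pcsk6, Scnn1g and F3 were lost (0.0847, 0.077 and 0.101), and that of Pcsk6 without ePRAoe 2 as well (0.0555).

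Of 26 lysosomal partners of the cathepsins 22 were tested, and 2 rose and 8 fell in ePRAoe while 2 rose and 1 fell in ePRBoe, with medians of -0.42 and -0.02. The shares called over all genes were 16.2% in ePRAoe (7.2% higher, 8.98% lower) and 8.89% in ePRBoe (6.41% higher, 2.48% lower). Lgmn (legumain), which processes cathepsins to their mature chains, fell in ePRAoe (log2 fold change -1.74, adjusted p = 0.0103) and had -0.70 in ePRBoe (adjusted p = 0.289). Neu1, a sialidase, fell in ePRAoe (-0.94, adjusted p = 0.00404). Sort1 (sortilin), a receptor that carries proteins to the lysosome, rose by 1.38 in ePRAoe and 1.35 in ePRBoe (adjusted p = 0.00543 and 0.0183). The ePRAoe call of Lgmn was lost without ePRAoe 2, ePRAoe 3, Wnt7acre 2 or Wnt7acre 3 (0.0647 to 0.0715). The ePRBoe call of Sort1 was lost without ePRAoe 2, ePRBoe 2, ePRBoe 3 or Wnt7acre 3 (0.0525 to 0.195). In the comparison of ePRBoe with ePRAoe neither set of partners had a call, where only 0.324% of all genes were called.

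The remaining members had no call or were too low to be tested. Of the tested proteases 24 were called in no comparison, with means over the 9 libraries of 0.792 to 2054 FPKM, and 14 proteases did not reach 1 FPKM in at least 3 libraries. The highest single value was 49.3 FPKM (Klk1) among the untested proteases and 23.7 FPKM (Serpinb11) among the untested inhibitors. In the kallikrein cluster of chromosome 7, 10 members lie between 43774604 and 44229618, 5 were tested and 0 called. Of the 103 members 15 share more than 20% of their 50-base stretches with other genes, Serpina1 and Klk1b copies, Klk1, Wfdc6a, Klkb1 and Ctsd among them, and their values are uncertain to that extent. Over the 3 comparisons the members had 45 calls, of which 17 held with any library left out: 11 of 24 in ePRAoe against Wnt7acre, 6 of 18 in ePRBoe against Wnt7acre and 0 of 3 between the isoforms. The share that held over all genes was not computed. With 1 library left out, calls over all genes fell as low as 747 from 1998, 232 from 1098 and 0 from 40 in these comparisons.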

How the data were processed

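RNA of laser-captured luminal epithelium was sequenced in 9 libraries, 3 of each genotype. The authors deposited FPKM values for 15158 symbols as 1 table, per the file headers. The submitters' processing notes name mm10 as the build, STAR 2.5.2b, featureCounts 1.5.0-p1 of Subread, edgeR 3.28.0 and limma 3.42.2, without their order. Which annotation, strand setting and gene lengths were behind them is not given in the sources used here. Depth is unknown, so no counting interval is given. Of 860 low genes, 45.6% had values on multiples of 1 step common to all libraries (tolerance 0.0006 FPKM). A scaling particular to each library would give each its own step, so how these values were corrected for depth is not known here.

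The 12347 genes tested, 72 members among them, were fitted on log2(FPKM + 1) with limma 3.58.1 (R 4.3.3), with terms for genotype and sequencing run (4 residual and 3.64 prior degrees of freedom), and the fit was tested on simulated data. All ePRBoe libraries come from run 1, so they are set against the others through the run term. Within-run values are log2 differences without a test. Each run holds 1 ePRAoe and 1 Wnt7acre library, and leaving out either gave the same ePRAoe fold change. That of Cst3 was -0.71 without ePRAoe 3 and without Wnt7acre 2, so such a pair of leave-outs is not 2 separate checks. The moderated spread is shared, so leaving out an ePRBoe library can end an ePRAoe call at an unchanged fold change, as for Ctsk (0.87). The run term also links the genotypes, so leaving out an ePRAoe library can change the ePRBoe fold change itself. For Spink8 the ePRBoe fold change went from 5.33 to 6.05 without ePRAoe 2. Without the control library of run 1, ePRBoe is set against Wnt7acre only through ePRAoe. A lone library of a group in a run is assumed to vary like the rest.

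The members and lists were chosen with earlier results of these data known. Named were Spink8, all called members, the 5 most abundant of each class and up to 4 partners of each list by adjusted p; a few genes are not reported here. Positions come from GENCODE M21 (mm10; 103 members matched) and promoters from RefSeq (GRCm38.p6; 78 matched), and identities were computed with Biopython 1.88. The hexamer search was added after the files were seen. Alternatives were other pseudocounts, filters, scalings, run terms and replicate blocks, the compared genotypes alone, and each library left out.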

Additional observations from a re-analysis of the deposited data

Results flagged for a closer look

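In 3 members the effects of the isoforms differed from each other when the difference itself was tested, over the same controls. The log2 difference of ePRBoe minus ePRAoe was 1.92 for Spint3, 1.20 for Wfdc1 and 1.67 for Ctsl. For Spint3 and Wfdc1 both isoforms were above Wnt7acre and ePRBoe more so, while for Ctsl ePRAoe was below ePRBoe and Wnt7acre. None of the 3 calls held with every library left out in turn.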

How the results depend on the processing

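No member called in a comparison changed direction under any setting, and 16 of the 45 member calls held in every setting. Medians near 0 did change sign: that of the proteases in ePRBoe against Wnt7acre (0.09) was -0.05 with median-of-ratios factors, with the replicate block beside the run term and without ePRBoe 1, and -0.03 without ePRAoe 3 or Wnt7acre 2. The median of all genes was -0.03 in ePRBoe against Wnt7acre and -0.02 in ePRBoe against ePRAoe with median-of-ratios factors, and in ePRAoe against Wnt7acre 0.01 with these factors or with libraries rescaled to equal totals, where 953 genes were higher and 919 lower, beside 889 and 1109. A pseudocount of 0.1 moved the log2 fold changes of low genes away from 0, that of Prss35 in ePRAoe to -6.52 and that of Plaur to -3.93. Of ePRAoe against Wnt7acre, protease calls numbered 11, with 7 when a mean of 5 FPKM or more was asked for and 6 to 11 with a library left out; inhibitor calls numbered 12 (7 to 13), and calls over all genes 1998 (747 to 2719), with 1116 when the 2 genotypes were compared alone. Of ePRBoe against Wnt7acre, protease calls numbered 6 (1 to 9), with 2 at a mean of at least 5 FPKM and 10 without the run term; inhibitor calls 11 (5 to 13); calls over all genes 1098 (232 to 1602), with 653 at a mean of at least 5 FPKM and 1786 without the run term. Of ePRBoe against ePRAoe, protease calls numbered 1 (0 to 4), with 0 without the run term and 3 with the 2 genotypes alone; inhibitor calls 2 (0 to 4), with 1 without a filter, at a mean of at least 5 FPKM or without the run term, 0 with median-of-ratios factors or libraries rescaled to equal totals, and 4 with the 2 genotypes alone; calls over all genes 40 (0 to 546), with 19 without a filter, 22 with median-of-ratios factors, 7 without the run term and 585 with the 2 genotypes alone. The filters changed the number tested as well. At a mean of at least 5 FPKM 18 proteases, 17 inhibitors and 8428 genes were tested, beside 36, 35 and 12347 in the main fit. Without a filter 50, 52 and 15158 were tested. The causes of the changes between settings were not tested.

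The deviations of same-numbered libraries from their genotype means correlated at -0.23 to 0.17. Those of libraries of the same run correlated at -0.26 to 0.31. The check did not pick out the runs either, so it cannot decide whether the numbers pair libraries, and the main fit assumed no pairing. With the replicate block in place of the run term, calls over all genes were 1113 in ePRAoe against Wnt7acre and 4 in ePRBoe against ePRAoe, where protease and inhibitor calls were 0. With the replicate block beside the run term, calls over all genes were 917 in ePRAoe and 282 in ePRBoe against Wnt7acre and 0 between the isoforms, inhibitor calls in ePRBoe against Wnt7acre were 5, and protease and inhibitor calls between the isoforms were 0. Members near 1 FPKM limit the precision, since the depth is not stated.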
